A study of Homo sapiens with 8 samples.

Results

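C4-2BENZR and CWR-R1ENZR are prostate cancer cell lines that were made resistant to the antiandrogen enzalutamide, and the levels of their polyadenylated RNA were set against each other as 2 resistant end states. The C4-2BENZR values are those of 2 libraries and the CWR-R1ENZR values those of 1, which makes 3 of the 8 libraries of the series. Both lines were deposited in separate tables, so the comparison was restricted to the 13230 genes listed in both, of 13969 in the C4-2B table and 14809 in the CWR-R1 table. Each library was rescaled to the same total over these genes, and a level below is the number of reads per 1000000 on that scale. CWR-R1ENZR had 1 library and the tables were normalized separately, so no test was made and differences are described by size, beside the spread of the C4-2BENZR replicates.

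The study compared enzalutamide-sensitive with enzalutamide-resistant (ENZR) forms of 3 prostate cancer lineages by paired-end sequencing. C4-2B is a bone-tropic, castration-resistant derivative of LNCaP, and CWR-R1 was derived from a relapsed CWR22 xenograft. All C4-2B and C4-2BENZR libraries carry luciferase and GFP transgenes, and no transgene is labelled for CWR-R1 or CWR-R1ENZR. The labels name the C4-2B replicates biological without saying what separated them, each line stands for its lineage alone, and drug dose, selection time and drug at harvest are not stated there. The sensitive parents, C4-2B with 2 libraries and CWR-R1 with 1, are used below to show the order of the lines before resistance.

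Androgen signalling, with FOXA1, HOXB13 and other pioneer factors that open chromatin, activates genes of prostate secretion and metabolism. Enzalutamide blocks this signalling. Resistant prostate cancers are known to differ in whether they go on using androgen signalling, use a related steroid receptor, or lean on other growth signals such as receptor tyrosine kinases and the ERK kinase cascade.

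Reads in the shared genes numbered 14329623 in CWR-R1ENZR, 20184568 and 16646528 in the C4-2BENZR replicates and 15080733 to 19948294 in the parents. The shared genes held 98.8% to 99.7% of the reads of all listed genes. Of 11 prostate luminal markers, all were listed and passed the level filter. The shared genes held 2 of 11 leukocyte, 1 of 8 endothelial, 3 of 8 fibroblast and 0 of 7 erythroid markers, and PTPRC, PECAM1 and HBB, which define these cells, were not among them. VWF, an endothelial and platelet protein, had levels of 3.72 and 4.02 in C4-2BENZR and 27.6 in CWR-R1ENZR. A pair of actin-binding proteins on the leukocyte list went opposite ways, with LCP1 at 59.4 and 68.00 against 3.21 and CORO1A at 16.9 and 19.2 against 284, and the part of other cells in the results was not tested. In bulk RNA, fewer cells of a type and less RNA per cell cannot be told apart.

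The resistant lines differed widely, and more genes were lower in C4-2BENZR than higher. Among 11949 genes with a level of at least 5 in one of both lines, 1502 (12.6%) were at least 2-fold higher in C4-2BENZR and 2163 (18.1%) at least 2-fold lower, on the log2(level + 1) scale. Counts in the gene lists below are to be read beside these shares. At least 16-fold apart were 205 genes (1.72%), of which 54 (0.452%) were higher and 151 (1.26%) lower in C4-2BENZR. The C4-2BENZR replicates were 2-fold apart in 11 genes (0.0921%). The median absolute log2 ratio was 0.63 between the lines and 0.09 between the replicates, and the median log2 ratio was -0.06. Across genes, Pearson's r of log2(level + 1) was 0.81 between either C4-2BENZR replicate and CWR-R1ENZR and 0.995 between the replicates, which share a table and a line. It was 0.83 between either C4-2B replicate and CWR-R1.

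Genes at the high end of C4-2BENZR encode secreted and membrane proteins, enzymes and a transcription factor, and CWR-R1ENZR had them at levels of 0 to 4.19. SPON2, a secreted matrix protein, had 1624 and 1573 in C4-2BENZR and 1.33 in CWR-R1ENZR, a fold of 1206 with an exact (Clopper-Pearson) 95% interval of 773 to 2006. Intervals and floors here cover counting error alone, not the spread between libraries, and treat each read as a separate molecule. Reads may not be separate molecules, and no use of molecular identifiers is known here. The parents differed in the same way, with 1366 and 1250.02 in C4-2B and 0.995 in CWR-R1. MAOA, the mitochondrial enzyme that degrades serotonin and noradrenaline, stood at 463 and 455 against 4.19, while the parents had 365 and 368 against 108. The MAOA gap between the resistant lines was thus wider than that between their parents, a log2 ratio of 6.47 against 1.76.

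IRX4, a homeobox transcription factor, was at 109 and 98.04 in C4-2BENZR and 0.209 in CWR-R1ENZR, and THBS1, the adhesive glycoprotein thrombospondin 1, at 153 and 147 against 1.47. EFS, a docking protein of Src-family signalling, had 93.4 and 92.5 and no read in CWR-R1ENZR, which is at least 444-fold higher when that library is set to a floor of 3 reads. DPP4, a cell surface peptidase, also had no read in CWR-R1ENZR and was at least 293-fold higher, at 58.3 and 64.5; CWR-R1 had 16.4. PRUNE2 stood at 147 and 126 against 0.419, but the antisense RNA PCA3 lies within it and the use of strand in counting is not given, so reads of both cannot be told apart. In these 5 genes both C4-2BENZR replicates lay far above CWR-R1ENZR, and the parents stood in the same order.

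At the low end stood a retinoid carrier, signalling proteins, a calcium channel and a spindle protein that C4-2BENZR had near 0. CRABP2, the carrier that brings retinoic acid to its nuclear receptor, had 0.892 and 0.721 in C4-2BENZR and 416 in CWR-R1ENZR, where CWR-R1 had 24.1. PPP1R1B, a regulator of protein phosphatase 1, was at 0.941 and 1.38 against 402. MISP, which positions the mitotic spindle, was at 0.149 and 0.421 against 152. All of these were far lower in both C4-2BENZR replicates, and the CWR-R1ENZR level was in each case more than 10 times that of CWR-R1.

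CACNA1H, a T-type calcium channel, had 1 read in both C4-2BENZR libraries together and a level of 106 in CWR-R1ENZR, a fold of 4268 with a wide interval of 698 to 153904. UNC13A, a synaptic vesicle priming protein, stood at 0.0495 and 0.3 against 122, and PALM, a membrane-bound phosphoprotein, at 0.248 and 0 against 95.5. STAT6, the transcription factor of interleukin 4 signalling, had 0.347 and 0.3 against 126. PTGER4, the EP4 receptor of prostaglandin E2, had 0.545 and 0.481 in C4-2BENZR and 142 in CWR-R1ENZR, while its parents were close, at 6.97 and 5.28 in C4-2B and 10.01 in CWR-R1. For UNC13A, PALM, STAT6 and CACNA1H the parents already stood in the same order, by log2 ratios of -5.04, -6.08, -5.11 and -4.39.

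The pioneer factors FOXA1 and GATA2 each differed by less than 2-fold between the resistant lines. FOXA1 was at 463 and 468 in C4-2BENZR against 309 in CWR-R1ENZR, and GATA2 at 269 and 266 against 308.

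HOXB13, a homeobox factor of prostate cells, was higher in C4-2BENZR, at 371 and 381 against 86.8, as in the parents (501 and 503 against 52.7). GRHL2, an epithelial transcription factor, stood at 336 and 329 against 107, and the coactivator NCOA1 at 62.3 and 55.2 against 23.3. NCOA3, a related coactivator, went furthest the opposite way with a log2 ratio of -0.58. In all, 3 of 14 members of the list of pioneer factors and coregulators were at least 2-fold higher in C4-2BENZR and 0 were lower.

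Androgen-activated genes, in contrast, were mostly higher in C4-2BENZR. Of 6 secreted products that passed the filter, 5 were at least 2-fold higher and 1 lower, with a median log2 ratio of 4.50 (2.88 between the sensitive lines). Of 28 intracellular and membrane genes of the same kind, 18 were higher and 4 lower, with a median of 2.34 (0.72 between the sensitive lines). The shares over all genes were 12.6% and 18.1%.

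KLK3 encodes prostate-specific antigen and KLK2 a neighbouring kallikrein protease, and both are classical androgen targets. Their promoters are shown here because both members stood among the 10 highest ratios and share a stretch that matches the androgen response element. The letters searched, on both strands, were the half-sites GNACA and GTNCT with 4 bases between them, in windows of 250 bases before to 50 after each start in the RefSeq promoters of GRCh38.p14. The match stands in capitals and begins 169 bases before the KLK3 start and 175 before that of KLK2. The stretches are the 250 bases before the start, chr19:50854665-50854914 for KLK3 and chr19:50873189-50873438 for KLK2, both on the plus strand.
KLK3: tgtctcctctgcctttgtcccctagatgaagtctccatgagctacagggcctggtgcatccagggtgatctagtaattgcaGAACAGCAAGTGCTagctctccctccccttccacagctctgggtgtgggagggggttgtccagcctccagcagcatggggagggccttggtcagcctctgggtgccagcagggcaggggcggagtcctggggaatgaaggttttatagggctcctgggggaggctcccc
KLK2: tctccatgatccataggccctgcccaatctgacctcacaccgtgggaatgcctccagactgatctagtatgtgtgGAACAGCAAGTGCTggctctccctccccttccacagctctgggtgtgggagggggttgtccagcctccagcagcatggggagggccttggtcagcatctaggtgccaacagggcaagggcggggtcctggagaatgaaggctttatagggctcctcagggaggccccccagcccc
The longest run of identical bases in both was 80, so the genes are close copies here. The motif was found in 246 of 35116 promoters (0.701%), in 2 of 5 secreted products with a promoter sequence and in 0 of 16 intracellular and membrane genes; a match is a description of letters, not of binding.

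KLK2 had levels of 221 and 234 in C4-2BENZR and 0.14 in CWR-R1ENZR (2 reads), a fold of 1629.8 with an interval of 449.9 to 13426. KLK3 had 51.6 and 49.9 in C4-2BENZR and no read in CWR-R1ENZR, at least 242-fold higher. The parents stood at 104 and 106 against 4.64 for KLK2 and 2009 and 1965 against 1.92 for KLK3. Both kallikreins were therefore higher in the C4-2B lineage before and after resistance, but C4-2BENZR had more KLK2 and far less KLK3 than C4-2B. How reads of the similar kallikreins were assigned is not known here.

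KLK4, a further kallikrein, was at 96.9 and 87.8 in C4-2BENZR and 5.37 in CWR-R1ENZR, where its parents had 99.4 and 101 and 152. AZGP1, a secreted zinc-binding glycoprotein, stood at 81.3 and 74.1 against 1.26, and ACPP, prostatic acid phosphatase, at 12.3 and 11.2 against 1.12. The member that went the other way was GDF15, a stress cytokine of the TGF-beta family, at 21.5 and 26.3 against 915, the only of the 6 secreted products that was lower in C4-2BENZR.

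Among intracellular and membrane targets, the STEAP metalloreductases were far apart. STEAP2 stood at 459 and 447 in C4-2BENZR and 2.58 in CWR-R1ENZR (parents 565 and 585 and 47.5), and STEAP1 at 155 and 162 against 3.35. FOLH1, prostate-specific membrane antigen, was at 571 and 615 against 39.9. The surface proteins that are targeted in prostate cancer imaging and therapy, FOLH1 and STEAP1, were thus both over 10-fold lower in CWR-R1ENZR.

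SORD, sorbitol dehydrogenase, had 863 and 896 against 50.7, and PPAP2A, a lipid phosphatase, 393 and 419 against 17.1. SLC45A3, the membrane protein prostein, had 468 and 449 against 32.2, and TMPRSS2, a membrane serine protease, 299.9 and 314 against 58.1. These 4 differences were present between the parents as well, with log2 ratios of 2.89, 5.16, 3.50 and 3.11.

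Another set of targets parted only in the resistant state or turned its order. FKBP5, a cochaperone of steroid receptors, was at 726 and 730.2 in C4-2BENZR and 108 in CWR-R1ENZR, while C4-2B had 347 and 372 and CWR-R1 881. NDRG1, a growth-related stress protein, stood at 257 and 277 against 53.6, with parents at 58.4 and 75.3 and 68.03. PMEPA1, a membrane inhibitor of TGF-beta signalling, had 94.2 and 91.6 against 11.4, with parents at 181 and 198 and 145. For FKBP5 the CWR-R1 lineage was the higher before and the C4-2B lineage after resistance; NDRG1 was highest in C4-2BENZR and PMEPA1 lowest in CWR-R1ENZR. ELL2, an elongation factor, was level in the parents (59.1 and 56.9 against 58.2) and stood at 51.4 and 54.2 against 9.07 in the resistant lines.

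Several members did not follow. MAF, a bZIP transcription factor, was at 0.0495 and 0.12 in C4-2BENZR against 17.4 in CWR-R1ENZR, and TSC22D3, the leucine zipper protein GILZ that glucocorticoids also raise, at 33.2 and 33.8 against 127. ZBTB10 and the transporter ABCC4 were the remaining members at least 2-fold lower in C4-2BENZR, with log2 ratios of -1.59 and -1.03.

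**Figure D1:**
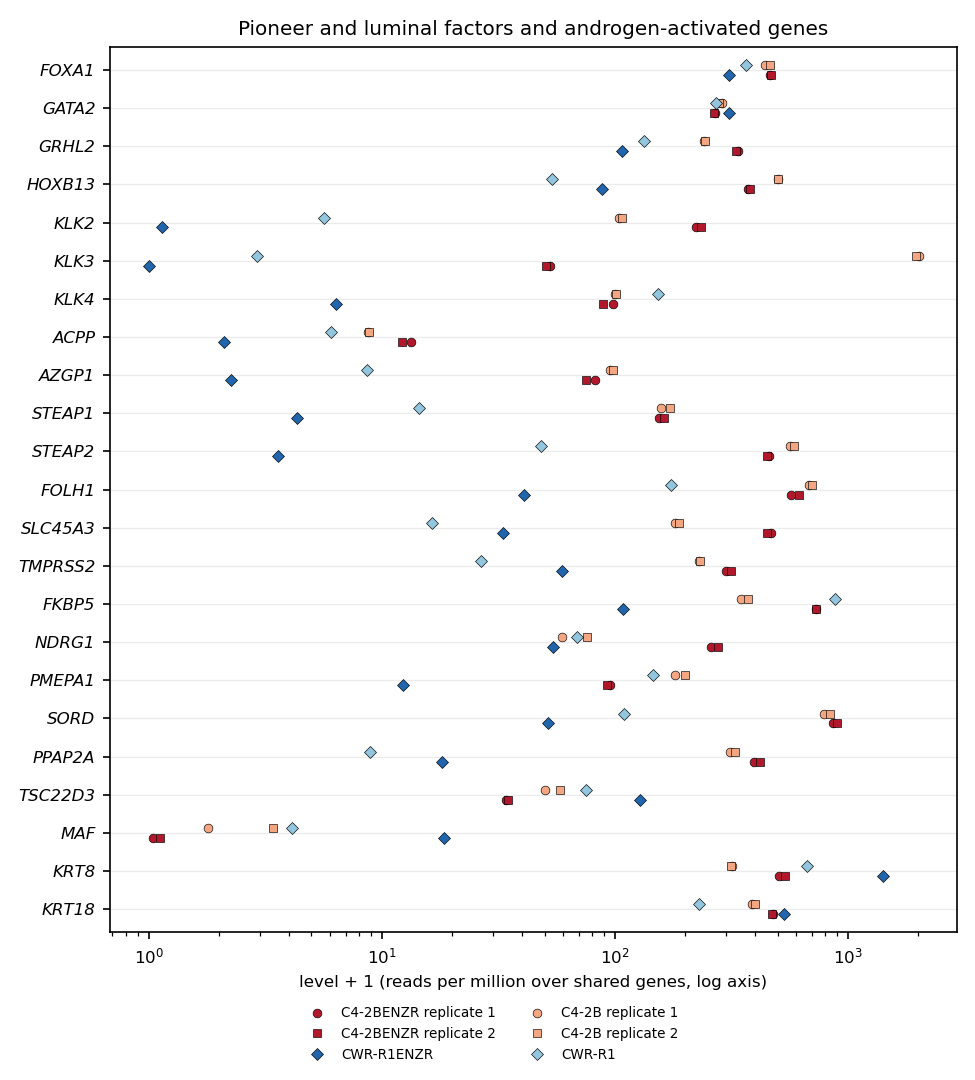
Levels of pioneer factors, androgen-activated genes and luminal keratins in each library, as level + 1 (reads per 1000000 over shared genes) on a log axis; red symbols are the C4-2B lineage and blue symbols the CWR-R1 lineage, dark for resistant and light for sensitive. FOXA1 and GATA2 lie close in both resistant lines, while KLK2, KLK3, STEAP2 and STEAP1 lie far lower in CWR-R1ENZR.

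Genes that rise when androgen is withdrawn gave no common direction, with 2 of 7 higher and 2 lower. DDC, the aromatic amino acid decarboxylase, had 12.5 and 15.3 in C4-2BENZR and no read in CWR-R1ENZR, at least 66.5-fold higher, although CWR-R1 had 46.8. BCHE, butyrylcholinesterase, was lower, at 0.644 and 1.02 against 22.96. UGT2B15, which clears androgens by glucuronidation, stood at 7.98 and 6.43 against 0.209 (3 reads), the reverse of the parents (4.71 and 4.22 against 13.3). Reads of the near-identical UGT2B genes may have been shared.

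Enzymes of androgen synthesis and clearance, taken as 1 list, leaned to CWR-R1ENZR, with 5 of 10 lower in C4-2BENZR and 1 higher. The synthesis enzymes CYP17A1, HSD3B1, HSD3B2, HSD17B3 and SRD5A2 were listed for neither lineage. AKR1C3, which makes testosterone from androstenedione, was at 0.941 and 1.44 against 29.3, and C4-2B had no AKR1C3 read. HSD17B11 stood at 10.3 and 11.9 against 74.5 and STS, steroid sulfatase, at 11.1 and 10.4 against 33.5. SRD5A3, of the steroid 5-alpha-reductase family, went the other way, at 43.1 and 42.1 against 12.1. AKR1C3 has close paralogs, so its level is uncertain.

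Other nuclear receptors were split, with 3 of 20 higher and 6 lower in C4-2BENZR. PPARG, a fatty acid-sensing receptor, had 4.95 and 6.73 in C4-2BENZR and 0.0698 in CWR-R1ENZR (1 read), with all parental libraries below 1.5. RORA was at 0.396 and 1.38 against 11.7, the orphan receptor NR2F1 at 18.03 and 14.9 against 90.7 and the clock receptor NR1D1 at 13.8 and 17.2 against 70.1. NR2F1 had been the higher in the C4-2B lineage between the parents, though by less than 2-fold, since C4-2B had 69.5 and 73.03 and CWR-R1 48.9. NR3C1, the glucocorticoid receptor, was listed in the CWR-R1 table and is outside the shared genes.

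Epithelial genes that passed 2-fold were more often higher in CWR-R1ENZR, except for the prostate luminal markers. Of 28 luminal epithelial genes, 11 were lower in C4-2BENZR and 2 higher (median log2 ratio -0.73, against 0.52 between the parents). Basal epithelial genes gave 6 lower and 3 higher of 10 (median -1.63, against 0.44). Both medians thus had the opposite sign in the parents. The prostate luminal markers, most of which are also on the androgen-activated lists, leaned to C4-2BENZR, with 8 of 11 higher and 1 lower (median 2.59, against 3.11).

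ELF3, an epithelial ETS factor, was at 29.2 and 31.2 in C4-2BENZR and 893 in CWR-R1ENZR, and AGR2, a protein disulfide isomerase of secretory cells, at 6.04 and 8.53 against 215. The simple keratin KRT19 stood at 19.3 and 21.1 against 339, and CWR-R1 had 1.53. KRT8, the luminal keratin, was at 505 and 536 against 1411, while its partner KRT18 was near level at 479 and 473 against 529.7. EHF, an ETS factor related to ELF3, went the other way with 976 and 966 against 117.

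KRT80, a keratin of stratified epithelia, was among the 10 lowest ratios, at 1.54 and 1.2 against 274; it was near 0 in both parents (1.25 and 2.36 in C4-2B, 0.597 in CWR-R1). The laminin chain LAMB3 had the same pattern, at 1.93 and 2.22 against 119, with parents below 1. SFN, the epithelial 14-3-3 protein, stood at 1.83 and 1.2 against 65.8 and had that order in the parents too. LAMA3, the partner chain of LAMB3 in laminin 332, was higher in C4-2BENZR, at 107 and 95.9 against 2.79. The subunits of that laminin were therefore divided between the lines.

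The shared mesenchymal genes had no common direction, with 3 of 11 higher and 3 lower. A further 8 were listed for the CWR-R1 lineage alone and 0 for the C4-2B lineage alone. Their levels in CWR-R1ENZR ran from 0 for ZEB1 and ZEB2 to 55.3 for S100A4. VIM, vimentin, was at 58.8 and 61.3 in C4-2BENZR and 4.68 in CWR-R1ENZR, with parents at 12.9 and 13.7 and 7.43, and SNAI2, the repressor Slug, at 8.62 and 10.03 against 1.12. TNC, the matrix protein tenascin C, was at 6.84 and 6.25 against 33.4 where CWR-R1 had 336 and C4-2B no read. LOX, a collagen cross-linking enzyme, stood at 0.495 and 0.421 against 6.63. Vimentin and Slug were the higher in C4-2BENZR while the matrix genes TNC and LOX were the lower.

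Stem and plasticity genes were lower in C4-2BENZR in 11 of 20 members and higher in 2 (median -1.56, against -0.84 in the parents). NES, the intermediate filament nestin, was at 142 and 128 against 1789, with parents at 42.96 and 41.1 and 239. SOX9, a progenitor transcription factor, stood at 12.2 and 13.5 against 183, and ALDH1A3, a retinaldehyde dehydrogenase, at 25.3 and 21.03 against 478. For NES, SOX9 and ALDH1A3 CWR-R1ENZR exceeded CWR-R1 more than 5-fold. ALDH1A1, with the next largest difference, did not share this. It stood at 1.34 and 0.601 in C4-2BENZR against 20.4 in CWR-R1ENZR, where CWR-R1 had 164. LGR4, an R-spondin receptor, was the member furthest higher in C4-2BENZR, at 46.2 and 43.9 against 10.6.

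Neuroendocrine and vesicle genes were lower in C4-2BENZR in 5 of 8, as between the parents (median -1.93, against -2.56). SYP, synaptophysin, was at 0.545 and 1.5 against 33.1, the retrotransposon-derived PEG10 at 16.8 and 23.4 against 327, and the granule protein PCSK1N at 20.6 and 18.6 against 144. The exception was SYT4, a synaptotagmin, at 399 and 396 in C4-2BENZR against 8.72. PEG10 was lower in CWR-R1ENZR than in CWR-R1 (1156), so its gap had narrowed.

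HOX genes leaned the same way, with 11 of 22 lower and 3 higher. HOXC10 had no read in any C4-2B or C4-2BENZR library and 31.5 in CWR-R1ENZR, at least 192-fold lower in C4-2BENZR. HOXA9 stood at 1.88 and 1.86 against 16.6, and HOXA11 the other way at 29.03 and 30.6 against 1.05. These body-patterning genes thus differed within the same cluster.

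Genes switched on by growth factor signalling were mostly lower in C4-2BENZR. Of 25 immediate early and ERK feedback genes, 21 were at least 2-fold lower in C4-2BENZR and 1 was higher, with a median log2 ratio of -2.02. Between the sensitive lines 12 were lower and the median was -0.90. The background share of lower genes was 18.1%.

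EGR1, a zinc finger factor induced within minutes of ERK activation, had 0.941 and 1.14 in C4-2BENZR and 79.1 in CWR-R1ENZR, with parents at 1.1 and 0.955 and 38.00. ETV5, an ETS factor downstream of ERK, was at 0.0495 and 0.3 against 37.9. IER3, an early response gene, stood at 2.13 and 2.52 against 109, and DUSP4, a nuclear phosphatase that switches ERK off, at 11.6 and 12.4 against 340.4. In both IER3 and DUSP4 the CWR-R1ENZR level was over 5 times that of CWR-R1 (9.28 and 50.9). JUN, a subunit of AP-1, was the member higher in C4-2BENZR, at 86.1 and 84.3 against 40.7.

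The serum response element by which early genes answer ERK is visible before EGR1. Its core, the CArG box (CC, 6 bases of A or T, GG, searched on both strands), was found in 454 of 35116 promoters (1.29%) and in 1 of 16 members of this list with a promoter sequence. The stretch shown is chr5:138465339-138465418 of GRCh38.p14 (RefSeq), plus strand, 140 to 61 bases before the start, with the matches in capitals.
EGR1: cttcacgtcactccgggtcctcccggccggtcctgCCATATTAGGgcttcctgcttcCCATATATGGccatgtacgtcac
The 2 matches begin 105 and 83 bases before the start, and these letters say nothing on which factor was bound.

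Some growth factor ligands were lower in C4-2BENZR too. In the list of ERBB, FGF, PDGF and MET receptors and ligands 7 of 18 were lower in C4-2BENZR and 3 higher (median -0.73). Between the parents 9 were lower and 0 higher (median -0.92), so the list as a whole was not more one-sided after resistance. HBEGF, a ligand of the EGF receptor, was at 6.64 and 8.53 in C4-2BENZR and 412 in CWR-R1ENZR, while the parents had 3.31 and 3.52 and 8.16. KITLG, the ligand of KIT, stood at 2.03 and 3.12 against 63.99 and PDGFC, a platelet-derived growth factor, at 0.446 and 0.36 against 13.5. FGFR4 was furthest the reverse, at 18.1 and 18.3 against 6.56. EGFR, the receptor of HBEGF, named after its values were seen, was higher in C4-2BENZR too, at 62.4 and 58.5 against 25.1. The HBEGF difference was wider between the resistant lines than between the parents (log2 ratio -5.59 against -1.05), whereas KITLG and PDGFC were as far apart in the parents (log2 ratios -4.98 and -3.42).

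The insulin-like growth factor system gave 5 lower and 2 higher of 10. IGFBP3, a binding protein that sequesters the growth factor, was at 21.5 and 19.7 against 789.7, although both parents were below 4. IRS2, an adaptor of the insulin receptor, stood at 10.9 and 11.2 against 400.4, as between the parents (4.46 and 4.67 and 409). GRB10, an inhibitory adaptor of the same receptor, was at 253 and 258 against 14.9. The inhibitory adaptor and IRS2 thus had opposite orders, both already present in the sensitive lines.

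In the TGF-beta and BMP list 11 of 30 were lower in C4-2BENZR and 3 higher. TGFB1, the ligand, was at 0.545 and 1.2 against 74.7 and had no read in C4-2B. ID4, a helix-loop-helix inhibitor downstream of BMP, stood at 1.34 and 1.5 against 239, and SMAD3, the signal transducer, at 20.4 and 20.1 against 213. BMPR1B, a BMP receptor, was at 0.347 and 0.661 against 26.03 even though C4-2B had 17.6 and 17.99 and CWR-R1 16.4. TGFB1, SMAD3, ID4 and BMPR1B, which belong to different branches of the list, were lower in C4-2BENZR, and PMEPA1, the inhibitor described above, was higher.

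WNT and NOTCH genes were mostly within 2-fold, with 4 higher and 2 lower of 28 and 1 higher and 4 lower of 20. Genes at large were mostly within 2-fold too, since 30.7% of all genes that passed were at least 2-fold apart either way. NOTUM, an enzyme that inactivates WNT, was at 0.545 and 0.661 against 21.8 and the receptor FZD8 at 1.59 and 1.56 against 21.01; CWR-R1 had 503. LFNG, which modifies NOTCH receptors, was at 27.3 and 28.8 against 5.72, while the NOTCH target HES1 stood at 27.4 and 27.5 against 70.8. The NOTCH modifier and the target had opposite orders.

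Most transcripts of MHC class I antigen presentation were lower in C4-2BENZR. Class I molecules show peptides made by the proteasome to cytotoxic T cells. Of 20 genes of class I and peptide loading, 13 were at least 2-fold lower and 0 were higher (median -1.30, against -0.90 between the parents, where 9 were lower).

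HLA-B had 43.2 and 47.6 in C4-2BENZR and 566 in CWR-R1ENZR, with parents at 28.4 and 34.8 and 71.8. HLA-C stood at 135 and 139 against 681, although the parents were level (143 and 135 and 156). The immunoproteasome subunit PSMB8 was at 3.42 and 3.3 against 72.3 and PSMB9 at 1.09 and 0.601 against 12.2. In all 4 the highest of the 6 libraries was CWR-R1ENZR. TAPBPL, a tapasin-related peptide editor, was furthest the other way, with a log2 ratio of 0.53. HLA genes vary between people and resemble each other, so read assignment may differ between lines with different alleles.

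The interferon response list was less one-sided, with 10 of 31 lower and 6 higher. IFITM1, an antiviral membrane protein, was at 2.87 and 4.15 against 64.8, LGALS3BP at 6.19 and 5.83 against 53.9 and the exonuclease ISG20 at 6.64 and 4.21 against 39.8. HERC6, a ubiquitin ligase family member, was higher, at 11.7 and 12.4 against 0.209 (3 reads). Among NF-kB genes 2 of 14 were higher and 3 lower, near the 12.6% and 18.1% over all genes. ICAM1, an adhesion molecule for leukocytes, stood at 29.5 and 30.3 against 1.88, and NFKBIZ, an atypical inhibitor, at 6.14 and 6.19 against 61.6. RELB and BIRC3 were lower by log2 ratios of -1.34 and -1.06. BIRC3 came under 2-fold with a pseudocount of 2 (log2 ratio -0.88) and without C4-2BENZR replicate 1 (-0.98).

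Targets of p53, the tumour suppressor that answers DNA damage, gave 12 lower and 0 higher of 32 (median -0.75, against 0.03 between the parents). BBC3, the death protein PUMA, was at 3.47 and 4.63 in C4-2BENZR and 77.7 in CWR-R1ENZR, and GADD45B, a stress protein, at 5.65 and 5.59 against 57.5. With GDF15 and SFN, whose values are given above, these were the 4 with the largest differences. Between the parents, BBC3, GADD45B and SFN were already lower in C4-2B (log2 ratios -2.17, -1.88 and -4.98), while GDF15 was higher (2.26). TRIAP1, an inhibitor of apoptosis, was furthest the other way at a log2 ratio of 0.70. In the BCL2 family 3 of 13 were lower and 2 higher, near the 18.1% and 12.6% over all genes. BMF, a death-promoting member, stood at 6.89 and 8.41 against 369. BID was higher, at 37.8 and 36.6 against 11.3, and BOK too, at 80.7 and 70.3 against 28.9.

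DNA replication genes leaned to C4-2BENZR, though most were under 2-fold apart. Of 47 genes of G1/S and replication, 13 were at least 2-fold higher and 3 lower, with a median of 0.72; between the parents 0 were higher, 9 were lower and the median was -0.41. Genes of mitosis and G2/M did not share this, with 2 higher and 5 lower of 39 and a median of -0.03.

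MCM6, a subunit of the replicative helicase, had 153 and 157 in C4-2BENZR and 46.1 in CWR-R1ENZR, with parents at 120.01 and 121 and 88.99. The members lower in C4-2BENZR were regulators of the step before replication. The G1 kinase CDK6 was at 6.24 and 6.49 against 144, its inhibitor CDKN2B at 1.19 and 1.5 against 19.1 and cyclin D1, CCND1, at 333 and 357 against 2122. Cyclin D1 is also a target of ERK signalling. CDK6, CDKN2B and cyclin D1 had the same order in the parents (log2 ratios -5.24, -1.57 and -2.01).

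The MCM6 promoter is shown because E2F factors, which drive G1/S genes, bind the letters TTTNGCGC. Searched on both strands, this motif was in 629 of 35116 promoters (1.79%), in 13 of 39 G1/S genes with a promoter sequence and in 1 of 32 mitotic genes, which was CDK1. The stretch is chr2:135876494-135876613 of GRCh38.p14 (RefSeq), minus strand, 170 to 51 bases before the start.
MCM6: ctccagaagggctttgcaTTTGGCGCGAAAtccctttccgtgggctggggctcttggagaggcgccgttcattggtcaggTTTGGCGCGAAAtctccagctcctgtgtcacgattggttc
The 4 matches in capitals stand in 2 stretches, each with a forward and an overlapping reverse match, the first beginning 152 and the last 86 bases before the start.

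CDK1, the mitotic kinase, was at 559 and 541 against 118, and FOXM1, the transcription factor of mitotic genes, at 264 and 294 against 127. The phosphatase CDC25B stood at 78.2 and 82.1 against 188 and the centrosomal kinase NEK2 at 52.3 and 58.03 against 125. CDK1 and FOXM1 were thus higher while CDC25B and NEK2 were lower. Polyadenylated transcripts of replication-dependent histones had a median of -0.07 over 6 genes, against 3.03 between the parents; HIST1H1C was at 29.3 and 31.8 against 8.72, with C4-2B at 127 and 119. Histone genes are near-identical copies and lack the usual poly(A) tail, so these levels are uncertain.

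Lipid enzymes leaned to C4-2BENZR. Of 31 genes of fatty acid synthesis and oxidation 12 were higher and 3 lower. FADS2, a desaturase, was at 1334 and 1382 in C4-2BENZR and 43.3 in CWR-R1ENZR, ME1, which supplies NADPH for lipid synthesis, at 53.3 and 55.4 against 0.698, and ECI2, an enzyme of unsaturated fatty acid oxidation, at 159 and 166 against 12.4. ACSL4, which activates arachidonic acid, was the reverse, at 1.63 and 0.541 against 28.4. FADS2, ME1 and ACSL4 were as ordered in the parents, with log2 ratios of 5.503, 3.82 and -4.27.

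Cholesterol synthesis genes had a median of 0.47, with 3 of 26 higher and 3 lower, beside 12.6% and 18.1% over all genes. The sterol carrier STARD4 was at 2.92 and 3 in C4-2BENZR against 55.6 in CWR-R1ENZR and the mevalonate enzyme MVD at 28.9 and 24.6 against 78.02. EBP, a sterol isomerase, was the reverse, at 103 and 102 against 46.5.

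Mitochondrial and ribosomal genes were shifted by less than 2-fold in most members. In oxidative phosphorylation 6 of 48 were higher and 0 lower (median 0.40, against -0.07 in the parents), led by cytochrome c, CYCS, at 385 and 369 against 129; SDHA, a complex II subunit, was furthest the other way (log2 ratio -0.91). Of 49 cytosolic ribosomal proteins 4 were higher and 1 lower: RPL22L1, a paralog of RPL22, stood at 369.9 and 394 against 63.8, and RPS19 at 459 and 475 against 991. Ribosomal proteins have many processed pseudogenes, which makes single members uncertain.

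Genes of glycolysis and hypoxia were split, 11 higher and 7 lower of 36. EPAS1, the hypoxia factor HIF-2 alpha, was at 4.81 and 4.69 in C4-2BENZR and 88.6 in CWR-R1ENZR, ANGPTL4, a secreted lipase inhibitor, at 0 and 0.0601 (1 read in all) against 13.2, and neuronal enolase ENO2 at 35.1 and 33.5 against 224. CA12, a carbonic anhydrase, was higher, at 104 and 114 against 20.2. All 4 kept the order of the parents, although CWR-R1 had 206 for ANGPTL4.

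Antioxidant genes of the NRF2 list had 5 higher and 5 lower of 36, near the 12.6% and 18.1% over all genes. SOD3, the extracellular superoxide dismutase, was at 8.72 and 10.99 against 756, although the parents were level (10.9 and 10.6 and 10.8). GSTM3 and MGST1, glutathione transferases, went the other way, at 187 and 193 against 9.42 and 143 and 149.6 against 9.07. Of the 6 libraries, CWR-R1ENZR alone had much SOD3 and alone had little MGST1 (CWR-R1 151).

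AHR, the aryl hydrocarbon receptor that senses xenobiotics, was at 2.92 and 3.66 in C4-2BENZR and 256 in CWR-R1ENZR. Its target CYP1A1 stood at 14.2 and 14.7 against 292 and the feedback repressor AHRR at 1.59 and 0.841 against 18.3. NQO1, a quinone reductase that NRF2 also raises, was the reverse, at 143 and 149.8 against 24.1. Receptor, target and repressor were all lower in C4-2BENZR, 4 of 9 members in all, and 1 was higher.

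Zinc genes leaned to C4-2BENZR, with 5 of 11 higher and 1 lower. Prostate cells are known for holding much zinc, which metallothioneins bind and SLC30 and SLC39 transporters move. MT2A was at 46.7 and 50.2 against 5.02 and MT1X at 25.8 and 29.9 against 2.51, with CWR-R1 at 91.6 and 16.6. SLC30A4, a zinc exporter, stood at 257 and 266 against 6 and the importer SLC39A8 at 159 and 169 against 26.4, while SLC39A10, another importer, was at 46.2 and 48.8 against 209. Metallothionein genes are near-identical neighbours, so single members are uncertain.

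Zinc acts on these genes through metal response elements, searched here as TGCNCNCGG on both strands. The motif was in 2295 of 35116 promoters (6.54%) and in 4 of 9 members of the zinc list with a promoter sequence: MT1X, MT2A, SLC30A1 and SLC39A6. The stretches of the metallothioneins are chr16:56682300-56682439 (MT1X) and chr16:56608414-56608553 (MT2A) of GRCh38.p14 (RefSeq), plus strand, 170 to 31 bases before each start.
MT1X: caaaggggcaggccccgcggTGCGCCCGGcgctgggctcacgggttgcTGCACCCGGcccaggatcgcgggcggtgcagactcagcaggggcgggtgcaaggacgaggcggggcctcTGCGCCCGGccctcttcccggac
MT2A: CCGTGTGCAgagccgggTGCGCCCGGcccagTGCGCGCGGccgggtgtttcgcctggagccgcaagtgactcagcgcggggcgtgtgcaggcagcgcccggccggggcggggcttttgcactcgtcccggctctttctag
The capitals mark 3 matches in each stretch.

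Heat shock proteins were divided, 8 higher and 3 lower of 22. HSPB1, the small heat shock protein HSP27, was at 798 and 859.9 in C4-2BENZR and 74.7 in CWR-R1ENZR (parents 1211 and 1239 and 453), and the HSP90 partner CHORDC1 at 171 and 175 against 24.6. HSPA2 and HSPA1A, HSP70 proteins, were lower, at 2.82 and 1.8 against 99.4 and 0.198 and 0.421 against 21.98; HSPA1A has a near-identical copy and is uncertain. Proteasome subunits had a median of 0.49, with 2 of 30 past 2-fold, PSMD2 and PSMD14, both higher. Targets of ATF4, the amino acid stress factor, gave 5 higher and 5 lower of 40, beside 12.6% and 18.1% over all genes. PHGDH, the first enzyme of serine synthesis, was at 439.9 and 469.8 against 122, whereas the stress genes TRIB3 and DDIT4 stood at 60.7 and 57.8 against 183 and 124 and 129.6 against 378.

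**Figure D2:**
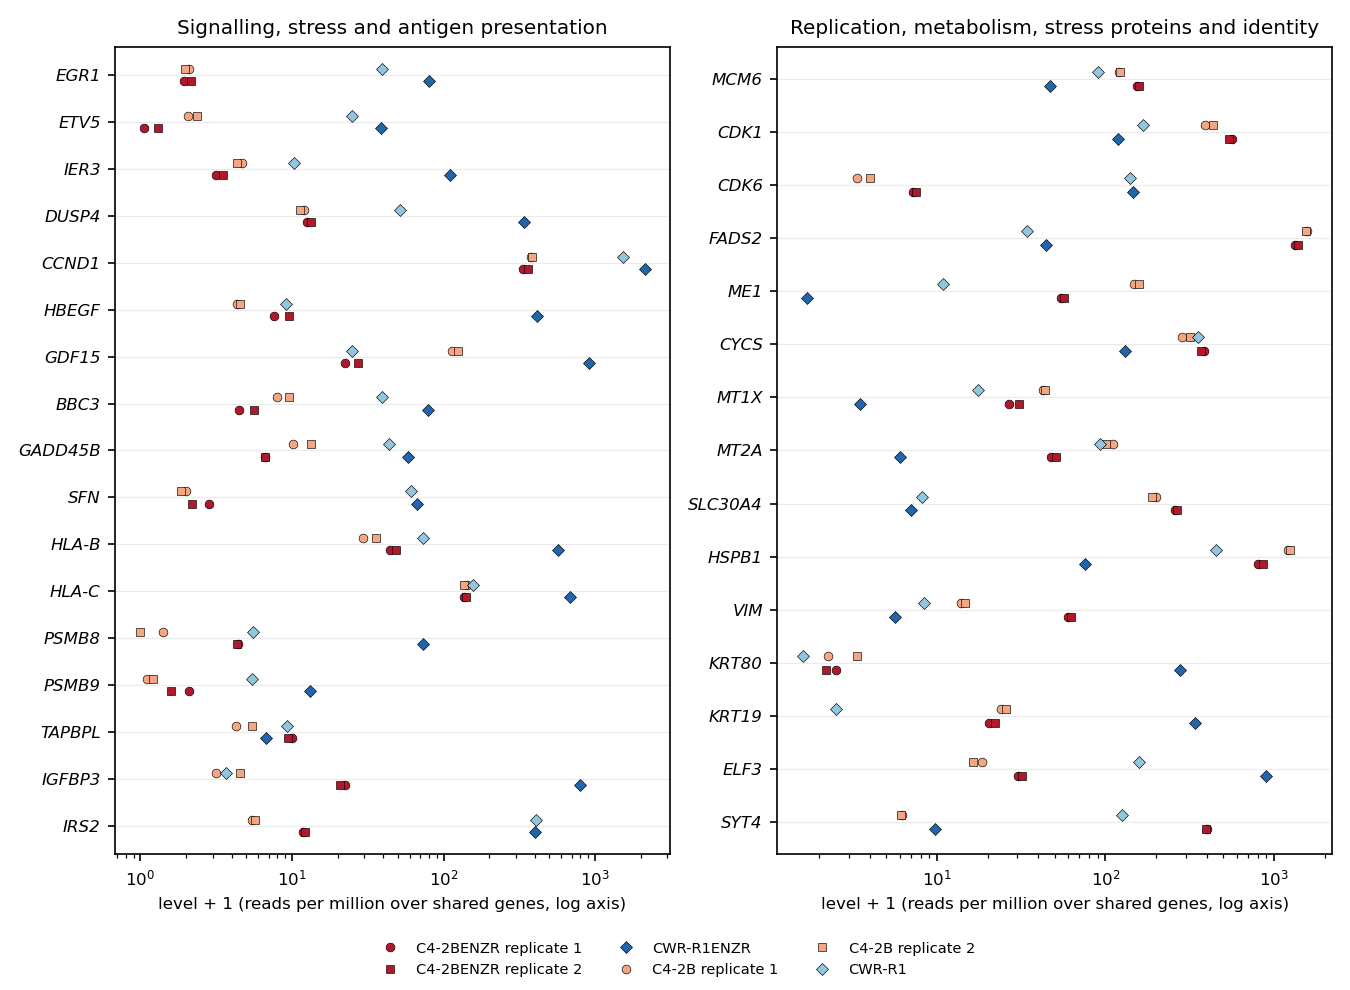
Levels of named genes of signalling, stress and antigen presentation (left) and of replication, metabolism, stress proteins and cell identity (right) in each library, as level + 1 (reads per 1000000 over shared genes) on a log axis, with the same symbols for all panels. EGR1, HLA-B, PSMB8 and IGFBP3 are highest in CWR-R1ENZR, and FADS2, SLC30A4 and VIM are highest in the C4-2B lineage.

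The cancer-testis list, of which many but not all genes are normally silent outside germ cells, gave 5 higher and 2 lower of 18. VCX was at 178 and 173 in C4-2BENZR and 5.65 in CWR-R1ENZR, although C4-2B had 1.75 and 1.26, and PAGE1 at 183 and 188 against 6.28. CTAG1B, which encodes the antigen NY-ESO-1, was the reverse, at 1.19 and 1.02 against 115.8. Each of these belongs to a family of near-identical copies, and reads may have been split between them.

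Matrix genes were lower in C4-2BENZR in 11 of 28 members and higher in 6. The fibrillar collagen COL5A2 was at 0.248 and 0.12 against 34.1, COL12A1 at 0 and 0.0601 (1 read in all) against 12.6, and the vitronectin-binding integrin subunit ITGB5 at 49.8 and 48.7 against 487. MMP16, a membrane metalloproteinase, was higher, at 66.9 and 56.05 against 5.51. Among fibroblast markers COL1A1 was near level, at 56.03 and 49.98 against 66.2, as was FBLN1, at 41.6 and 40.2 against 29.3.

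**Figure D3:**
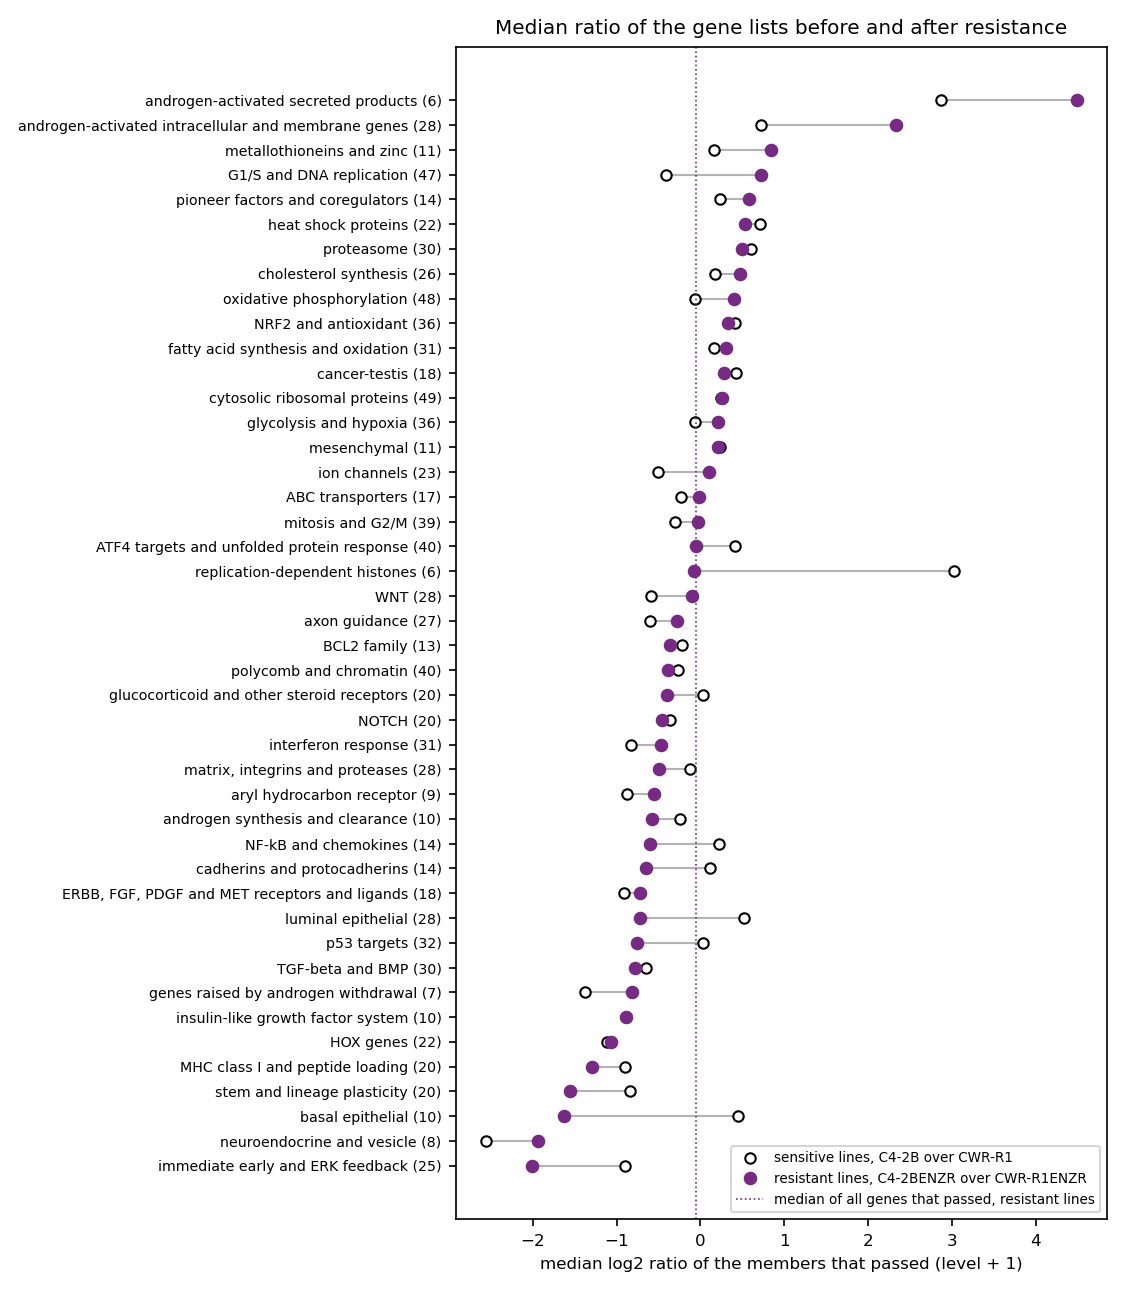
Median log2 ratio (level + 1) of the members that passed the level filter in each gene list with at least 5 such members, leaving out the lists of cell type markers, with their number in brackets; filled circles are C4-2BENZR over CWR-R1ENZR, open circles C4-2B over CWR-R1, and the dotted line is the median of all genes that passed (-0.06). Androgen-activated genes lie highest (4.50 and 2.34) and immediate early and ERK feedback genes lowest (-2.02).

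Many of these differences stood between the sensitive lines already. Of 11531 genes that passed the filter in both contrasts, 1432 were at least 2-fold higher in C4-2BENZR than in CWR-R1ENZR, and 604 of them (42.2%) were also at least 2-fold higher in C4-2B than in CWR-R1. Of 1961 lower genes, 1131 (57.7%) were also lower in C4-2B. Together 51.1% of the differences between the resistant lines were present before resistance. C4-2B was higher than CWR-R1 in 10.2% and lower in 17.8% of the genes that passed in that contrast. Another 758 higher and 779 lower genes were under 2-fold in the parents, while 502 genes higher and 751 lower in C4-2B were under 2-fold between the resistant lines. The log2 ratios of the 2 contrasts had a Pearson's r of 0.67 across genes, which are not independent; no library is shared, but the lines and tables are.

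Between the sensitive and the resistant forms, the order of the lines turned in 70 genes that C4-2BENZR had higher and in 51 that it had lower. SYT4, a synaptotagmin of vesicle release, had 5.21 and 5.13 in C4-2B and 124 in CWR-R1, but 399 and 396 in C4-2BENZR and 8.72 in CWR-R1ENZR. TENM2, a teneurin of synaptic adhesion, went from 0.201 and 0.0503 against 19.2 to 42.95 and 43.7 against 0.279. KCNJ3, a G protein-gated potassium channel subunit, went from no read against 10.5 to 80.7 and 75.4 against 7.26. In SYT4 and TENM2 the resistant form was the higher in the C4-2B lineage and the lower in the CWR-R1 lineage, while in KCNJ3 the gap arose in the C4-2B lineage. ELOVL2, an elongase of polyunsaturated fatty acids, went from 3.81 and 3.17 against 57.7 to 11.9 and 12.9 against 1.26. POC1B-GALNT4 is a read-through of neighbouring genes, listed at 6.84 and 7.99 and at 0 in CWR-R1ENZR, and is uncertain.

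In the other direction, GDF15 was higher in C4-2B (112 and 123) than in CWR-R1 (23.8) and far lower in C4-2BENZR than in CWR-R1ENZR. KRT19 had 22.9 and 24.5 in C4-2B, close to its C4-2BENZR level, so its order turned through the CWR-R1 lineage. TM4SF1, a tetraspanin-like surface protein, went from 50.9 and 54.3 against 0.796 to 2.38 and 1.44 against 22.5. TFPI, an inhibitor of blood coagulation, went from 23.2 and 21.3 against 3.58 to 0.347 and 0.3 against 7.61. In TM4SF1 and TFPI the C4-2BENZR level was under 0.1 times that in C4-2B.

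Differences that opened, from under 1.5-fold in the parents to at least 2-fold, numbered 416 with C4-2BENZR higher and 417 with it lower. LPAR3, a lysophosphatidic acid receptor, stood at 38.1 and 42.5 in C4-2B and 38.3 in CWR-R1, but at 34.6 and 36.9 against 0.977 after resistance. RAMP1, a coreceptor for CGRP, and ZNF827, a zinc finger protein, opened in the same direction, to log2 ratios of 3.18 and 3.76, and TMEM136 to 3.26. GULP1, an adaptor for engulfing dying cells, went from 94.2 and 97.1 against 79.2 to 0.0991 and 0.12 against 20.2. CADPS2, a factor of vesicle exocytosis, went from 37.2 and 35.8 against 30.2 to 1.98 and 1.68 against 31.1. LPAR3 was low in CWR-R1ENZR alone, while GULP1 and CADPS2 were lowest in C4-2BENZR.

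Differences that closed to under 1.5-fold numbered 269 with C4-2B higher before and 407 with it lower. PARP10, a mono-ADP-ribosyltransferase, went from 123 and 113 in C4-2B and 1.86 in CWR-R1 to 12.98 and 11.5 and 10.8. The stress kinase MAPK13 went from 74.6 and 67.8 against 2.25 to 26.6 and 30.4 against 26.2, and the Ras-GAP RASA3 from 26.2 and 27.6 against 0.53 to 12.6 and 12.1 against 8.51. In each the resistant form was the lower in the C4-2B lineage and the higher in the CWR-R1 lineage. P3H3, a collagen prolyl hydroxylase, closed from below, from 0.301 and 0.352 against 61.1 to 35.4 and 35.9 against 44.9. ZFP36L2, an RNA-binding protein that destabilizes messages, was at 1100.3 in CWR-R1 and at 51.9 and 49.6 against 55.2 in the resistant lines. SSX2B, a cancer-testis gene with near-identical copies, went from 0 and 0.151 in C4-2B to 99.6 and 103 in C4-2BENZR, beside 151 in CWR-R1ENZR.

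**Figure D4:**
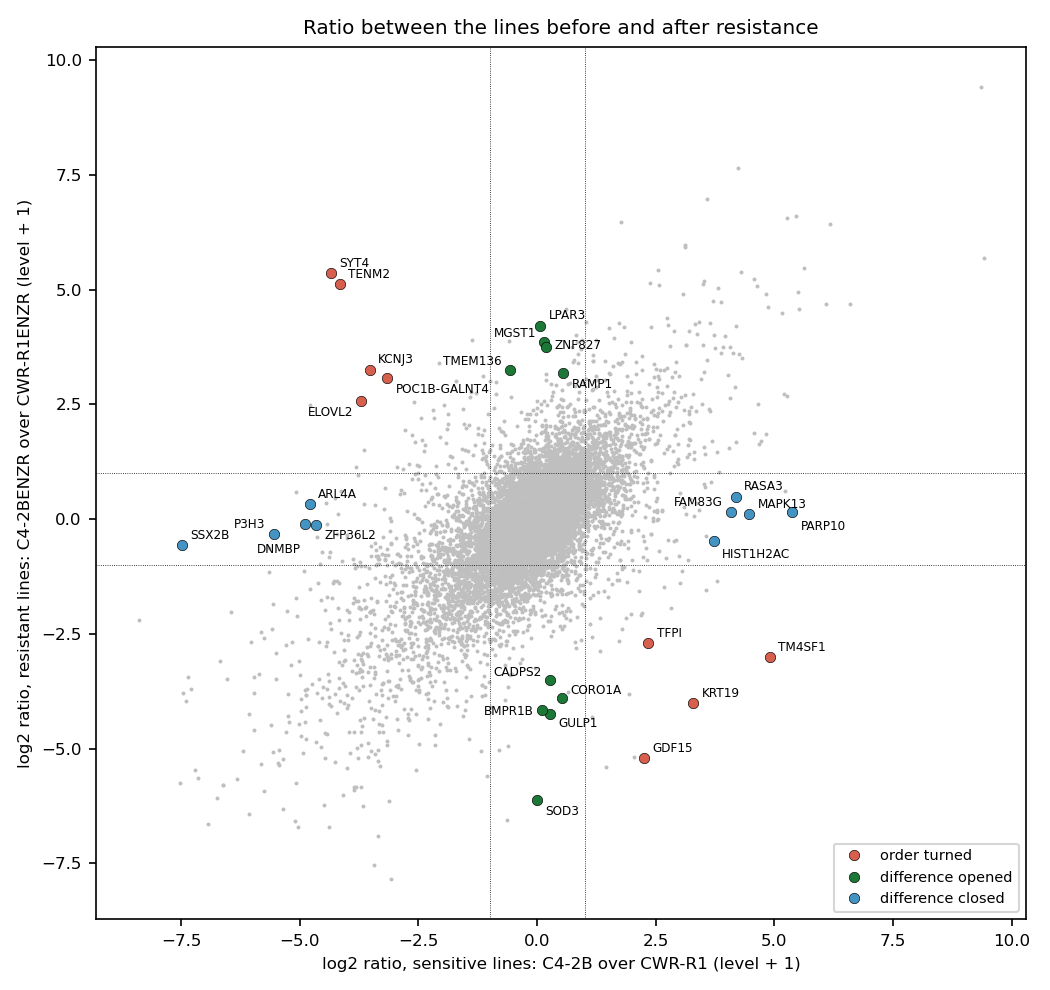
Log2 ratio (level + 1) of each of the genes that passed in both contrasts between the sensitive lines (x axis) and between the resistant lines (y axis); dotted lines mark 2-fold, grey points are genes and coloured points are the named genes whose order turned or whose difference opened or closed. SYT4 and TENM2 lie at the upper left and GDF15, KRT19 and TM4SF1 at the lower right.

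Some neighbouring genes differed together. In the gene order of RefSeq (GRCh38.p14, taken for adjacency alone since the files were made on hg19), 11813 of 11938 genes could be placed. There were 29 runs of at least 5 consecutive genes that were all at least 2-fold apart in 1 direction, 9 with C4-2BENZR higher and 20 with it lower, holding 172 genes. The longest run, from SNHG5 to LYRM2, held 12 genes, all lower in C4-2BENZR, with a median log2 ratio of -1.99; 11 of them were at least 2-fold lower in C4-2B too. Its members include the RNA processing enzyme gene RNGTT at 13.9 and 16.7 against 36.4 and the nuclear protein gene AKIRIN2 at 8.32 and 7.81 against 80.9.

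The next run, from DIAPH3 to TBC1D4, held 9 genes with a median of -1.63. KLF5, an epithelial zinc finger factor, was at 24.97 and 28.4 there against 229, and DIS3, a catalytic exosome subunit, at 28.7 and 31.5 against 95.3. PCDH20, a protocadherin in the same run, stood at 0.149 and 0 against 33.99, although C4-2B had 23.1 and 23.2. The run from GTF2H2C to GUSBP9 held 8 genes higher in C4-2BENZR and contains SMN1, SERF1B and other near-identical copies, so it is uncertain, and the run from NXF2 to BEX1 holds copies and a read-through. Unlike the longest run, that from PDE4C to GDF15, named after its values were seen, held 6 lower genes of which 0 were so in the parents (median -2.25, against 0.25).

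**Figure D5:**
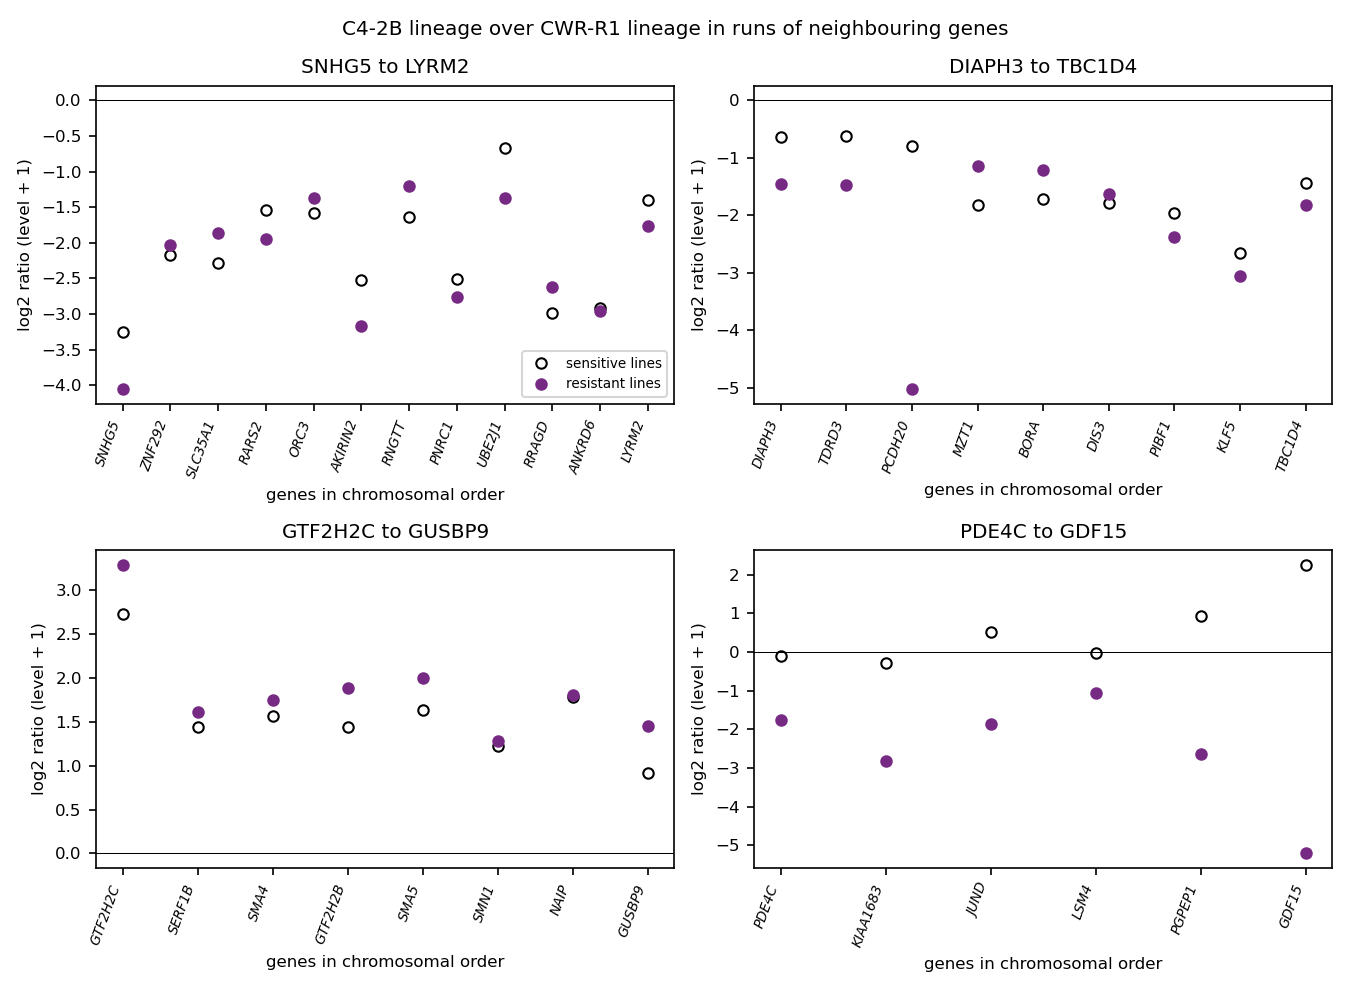
Log2 ratio (level + 1) of each gene, in chromosomal order, in 4 runs of neighbouring genes; filled circles are C4-2BENZR over CWR-R1ENZR and open circles C4-2B over CWR-R1, and the line marks equal levels. Filled and open circles lie close in the runs that start at SNHG5 and GTF2H2C, and apart in the run from PDE4C to GDF15.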

How the data were processed

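Polyadenylated RNA of 6 cell line libraries was used, sequenced as 150-base paired ends, per the labels. For each lineage the authors deposited a table of signal values, with a signed fold score, p-values and false discovery rates that were not used. Reads were placed on hg19, per the submitters' processing notes, and aligner, counter and use of strand are not stated. The deposited signal is a read count divided by a scaled library size, since 100% of the values came out as whole reads within 0.02 reads. The tables hold detectable genes, per the file headers and labels, so a gene in 1 table only has no level in the other.

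Each library was rescaled to 1000000 over the 13230 shared genes with Python 3.11.15, numpy 2.4.6, pandas 2.3.3 and scipy 1.17.1. Ratios are log2(level + 1), the C4-2BENZR mean over CWR-R1ENZR, which understates the change of low genes; 11949 genes with a level of at least 5 in one line were counted. Folds with intervals omit the added 1. A level of 3 reads was 0.149 to 0.209. No test, and no count test on the recovered reads, was run across the separately normalized tables. The contrast, gene lists, motifs and rules were chosen with earlier results of these data known. Of 1447 genes in 50 lists, 1053 were shared. Named genes were the 10 highest and 10 lowest (sum of levels at least 10, both replicates 2-fold apart), up to 4 per list plus the furthest opposite, 5 each way whose order turned or difference opened or closed, 6 from each table alone, and members of the longest runs; all androgen and prostate luminal members could be named. XIST and Y-linked genes were not named, and a few withheld genes that the rule or lists held are not reported here. The procedure was tested on simulated data. Alternatives were other scalings, pseudocounts of 0.5 and 2, filters of 1 and 20 or none, other folds and each C4-2BENZR library left out. VCaP was not analysed here.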

Additional observations from a re-analysis of the deposited data

Results flagged for a closer look

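Named genes whose order between the lines turned had every C4-2B lineage library on one side of the CWR-R1 lineage library before resistance and on the other after it. The difference between the resistant and the sensitive contrast was not tested. The log2 ratio between the resistant lines minus that between the sensitive lines was 9.69 for SYT4, 9.28 for TENM2, 6.79 for KCNJ3, 6.28 for ELOVL2 and 6.23 for POC1B-GALNT4. It was -7.91 for TM4SF1, -7.47 for GDF15, -7.29 for KRT19 and -5.04 for TFPI.

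Genes listed in 1 table only lie outside the comparison but include abundant transcripts. On the scale of the shared genes, 25 of 739 genes of the C4-2B table alone had a resistant level of at least 20, and 137 of 1571 of the CWR-R1 table alone (XIST and Y-linked genes left out). In C4-2BENZR, the cancer-testis genes GAGE12G, GAGE8, GAGE2A and MAGEA10 had mean levels of 253, 83.6, 79.3 and 108 (2 libraries), the first 3 being near-identical copies. GNB4, a G protein subunit, had 232 and NLRP2, a NOD-like receptor, 71.2. GAGE12G, GAGE8, GAGE2A and MAGEA10 were each higher in both C4-2BENZR libraries than in both C4-2B libraries.

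In CWR-R1ENZR, TGM3, an epidermal transglutaminase, had a level of 518 where CWR-R1 had 0.464. CTGF, a matrix-associated growth factor, had 182, against 13.99 in CWR-R1. CNN3, an actin-binding calponin, stood at 328, the chemokine CX3CL1 at 311 and the cancer-testis gene MAGEA4 at 214. SSTR5-AS1 was listed at 212; it is antisense to SSTR5, and reads of both cannot be told apart where strand is not known.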

How the results depend on the processing

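No paired analysis was possible because the comparison comes from no test and CWR-R1ENZR has 1 library. The counts of 1502 higher and 2163 lower genes stayed within 1.5 times under other scalings, pseudocounts and filters (1168 to 1635 and 1588 to 2371), and only a threshold of 4-fold moved them, to 374 and 805. With each C4-2BENZR library left out in turn they were 1510 to 1522 and 2152 to 2227. The share of differences already present between the sensitive lines, 51.1%, was 69.6% with 1.5-fold as the threshold in the sensitive lines, 51.5% on levels as deposited and 51.3% when scaled without the 100 most abundant genes. It was 51.8% and 50.4% with pseudocounts of 0.5 and 2, 48.7%, 50.3% and 47.8% with a filter of 1, of 20 or none, and 50.9% to 51.1% without either C4-2BENZR replicate. Setting levels under 3 reads to 3 reads, chosen after seeing the data, gave 1502, 2163 and 51.1%. Of 205 named genes at least 2-fold apart, 0 turned and 1, BIRC3, came under 2-fold in any of 11 alternatives. Of 46 list medians, that of HOX genes turned, to 0.075 with a filter of 20 (-1.07 as reported), where fewer genes are counted. Medians nearer 0 also changed sign in some alternatives. Ion channels had 0.097 as reported and ranged from -1.77 to 0.21, and mesenchymal genes had 0.21 and ranged from -0.039 to 0.27. Replication-dependent histones ranged from -0.22 to 0.22 and ABC transporters from -0.13 to 0.13. The range was -0.11 to 0.023 for mitosis and G2/M genes and -0.061 to 0.0011 for ATF4 targets. Leaving out 1 replicate changed 3 list counts by over 1.5 times: 3 mitotic genes were lower without C4-2BENZR replicate 1, and without replicate 2, 2 NOTCH genes and 1 NF-kB gene were higher. With 1 CWR-R1ENZR library, its own spread is unknown, and differences may be of that library rather than the line; separate scaling of the tables and line-specific alleles or copies of genes limit single values.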

Other observations

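Some surface and excitability genes also differed between the resistant lines. KCNMA1, the large-conductance calcium-activated potassium channel, was at 50.3 and 51.6 in C4-2BENZR and 0.209 in CWR-R1ENZR (3 reads), with parents at 23.9 and 22.7 and 3.18. The potassium channel KCNH2 and the L-type calcium channel CACNA1D were the reverse, at 1.44 and 1.68 against 34.3 and 1.29 and 1.44 against 28.8. Of 23 ion channels 6 were higher in C4-2BENZR and 8 lower. EFNA5, an ephrin, and SEMA4A, a semaphorin, were higher, at 393 and 396 against 22.1 and 46.03 and 44.7 against 3.21, while SEMA3B, a secreted semaphorin, was lower, at 26.6 and 21.4 against 156. Axon guidance genes gave 4 higher and 7 lower of 27, beside 12.6% higher and 18.1% lower over all genes.

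Cell adhesion genes leaned to CWR-R1ENZR, with 7 of 14 cadherins and protocadherins lower in C4-2BENZR and 2 higher. PCDH7, a protocadherin, was at 2.72 and 3.48 against 56.5, although C4-2B had 222 and 215. DSC2, a desmosomal cadherin, was the reverse, at 54.1 and 60.6 against 2.58. Among ABC transporters ABCA12, a lipid transporter, stood at 0.495 and 0.721 against 19.3 and ABCC6 at 13.3 and 14.5 against 2.51. Chromatin genes were mostly within 2-fold (2 higher and 6 lower of 40), as were genes at large (30.7% at least 2-fold apart either way). The X-linked demethylase KDM6A was higher, at 234 and 249 against 46.9, as in the parents. SMARCA1, an imitation-switch remodeller, and SMARCA2, a catalytic subunit of the SWI/SNF complex, were lower, at 1.44 and 0.901 against 13.7 and 47.1 and 47.8 against 131.

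Liver and intestinal genes were few: HLF, a bZIP factor, was at 45.98 and 36.8 against 1.81, CPS1, of the urea cycle, at 15.95 and 19.3 against 2.93 and HNF4G, a nuclear receptor, at 1.29 and 1.08 against 6.77. HLF was the member of these whose order differed from the parents, at 41.9 and 38.2 in C4-2B and 105 in CWR-R1.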
